A study of Mus musculus with 24 samples.

Results

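Of the 15247 mouse cDNA clones on the array, 102 gave a high female:male ratio both early and late in the differentiation of embryonic stem (ES) cells. These clones were chosen by their M values, the log2 of the female:male expression ratio with the median of each array subtracted. A clone was taken if it had a value on all 20 ES cell arrays, if its mean over the 8 arrays of days 0, 2 and 4 (the early mean) was at least 0.4, and if its mean over the 10 arrays of days 12, 15 and 21 (the late mean) was at least 0.4 as well. An M value of 0.4 is a ratio of 1.32. The clones with a value on all 20 arrays numbered 3527, and the 102 are 2.89% of them.

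The female samples of the ES cell arrays were the line PGK12.1, a 129 × PGK hybrid, and the male samples were the line CCE/R (129/sv), taken after the same number of days in differentiation. Cells of later days had grown unattached and without LIF, the cytokine that keeps ES cells undifferentiated. There were 4 arrays at day 0 (replicates A to D), 2 at day 2 (E and F), 2 at day 4 (G and H), 2 at day 7 (I and J), 3 at day 12 (K to M), 2 at day 15 (N and O) and 5 at day 21 (P to T). A further 2 arrays compared thymic lymphocytes of female and male Balb/c mice aged 4 weeks (U and V), and 2 compared inner cell masses (ICM, X and Y) of female and male Balb/c blastocysts grown in culture, whose RNA was amplified. The labels do not name the ES cell lines of each array, which were taken from the study. Each sex of ES cell is 1 line, so sex, strain and line cannot be told apart in any ES cell value below, and differentiated dishes hold mixed cells. The study calls the replicates of ES cells and lymphocytes biological. For the ICM it calls the female replicates biological and the male ones technical, so the spread between X and Y holds no biological spread of the male side. Day 7, the lymphocytes and the ICM took no part in the choice of the clones, and their 6 arrays are the ones tested here.

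In female mammals X inactivation evens out the dose of X-linked genes between the sexes, and undifferentiated female ES cells have not yet undergone it. A transcript can differ between female and male cells because it is X-linked and not yet silenced, because it escapes silencing, or because it is sex-specific in its control. Between lines of different strains, autosomal genes can also differ through inherited variants, imprinting state or the mixture of cell types that a culture forms. Thymic lymphocytes are somatic cells, and those of females have 1 X chromosome silenced, and the ICM is the part of the early embryo that gives rise to ES cell lines. The clones come from an embryonic cDNA collection and are known here by plate and well only. No annotation that pairs them with genes was used here, so neither their chromosome nor their function is given, no sequence is shown, and planned gene lists and markers of cell types could not be read.

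The array medians of the 102 clones stayed above 0 on every ES cell array. On day 0 these medians were 0.89 on replicate A, 1.10 on B, 0.94 on C and 0.74 on D. On day 2 they were 1.13 (E) and 0.97 (F), and on day 4 they were 0.86 (G) and 1.09 (H). The early medians thus lay around 1 on the log2 scale. On day 12 the medians were 0.56 (K), 0.76 (L) and 0.74 (M), and on day 15 they were 0.49 (N) and 0.73 (O). On day 21 they were 0.69 (P), 0.61 (Q), 0.51 (R), 0.61 (S) and 0.60 (T). Each late median was below every early one, except that L exceeded D. The medians of the 3527 clones with complete values lay between -0.13 and 0.06 on the ES cell arrays, and those of day 21 were all below 0 (-0.13 to -0.09).

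The early mean of the 102 clones ran from 0.41 to 2.52, with a median of 0.88, and the late mean from 0.40 to 1.59, with a median of 0.58. The early mean was above the late one in 74 clones and the late mean was the higher in 28. Clones were above 0 on 13 to 18 of the 18 arrays used for the choice, with a median of 17. Some were low on a whole day, and day 12 means of single clones ran from -1.72 to 1.73. Clones H3020e05, H3026e03, H3092g09 and H3111d06 were below 0 on every day 12 array. H3020e05 read -1.93 (K), -1.98 (L) and -1.25 (M) there, and 0.60 (R) to 4.13 (Q) at day 21. The clone nearest the threshold on the inside had a smaller mean of 0.40, and the nearest on the outside had 0.399. Early and late means of the 102 clones correlated with r = 0.36 (Spearman's rho 0.14, n = 102 clones), a description over clones cut at both means. All these values were used for the choice and are given without a test.

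**Figure D1:**
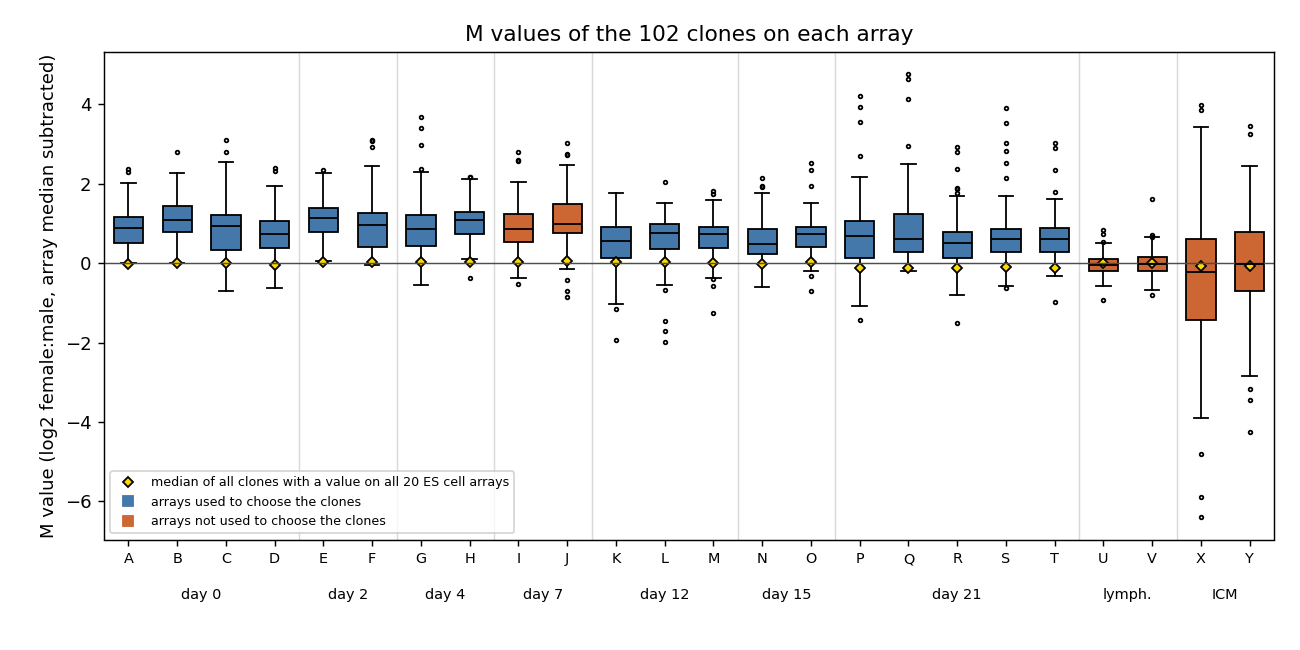
M values (log2 female:male, y axis) of the 102 clones on each of the 24 arrays (x axis, replicate letters under their day or tissue). Boxes span the quartiles with a line at the median, whiskers and points show the rest, and diamonds are the median of the 3527 clones with complete values. The boxes of days 0 to 21 lie above 0, including the day 7 arrays that were not used in the choice, while the lymphocyte and ICM boxes straddle 0.

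On day 7 most of the 102 clones were again higher in the female line. Their median was 0.87 on replicate I and 0.97 on replicate J, a mean of array medians of 0.92 ± 0.073 (SD, n = 2 arrays) or a 1.90-fold ratio. The clones above 0 numbered 94 of 102 on replicate I and 96 on replicate J, against 52.2% and 53.9% of the 3527 clones with complete values. Both arrays lay within the range of the early medians and above that of the late medians. The day 7 means of single clones ran from -0.15 to 2.91, with a median of 0.92. The median of all clones tested was 0.02. These are ratios of bulk RNA, in which more cells of a type and more RNA per cell cannot be told apart.

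In the linear model over all 20 ES cell arrays (limma, Benjamini-Hochberg adjustment over the 7122 clones with a value on every day), 56 of the 102 clones were higher in the female line at day 7 with an adjusted p under 0.05, and 0 were lower. Of all clones tested, 7.06% were called higher and 2.74% lower, and of the 3527 clones with complete values 8.56% were called higher and 3.71% lower. At an unadjusted p under 0.05, 74 of the 102 were higher and 0 lower, against 15.4% and 9.44% of all clones tested. Of the 46 clones not called, 33 were above 0 on both day 7 arrays, 12 were above 0 on 1 array and below on the other, and 1 was below 0 on both. In all, 89 of the 102 were above 0 on both day 7 arrays, against 37.3% of the clones with complete values, and 1 was below 0 on both, against 31.2%. The day 7 arrays alone, without the other days, gave 51 clones called higher and 0 lower, against 7.30% and 4.86% of the 8395 clones then tested. With a single day 7 array, whose spread is then assumed to be that of the other days, the count fell to 30 without replicate I (3.64% of all clones tested were then called higher) and to 13 without replicate J (1.34%), and 0 were called lower in either case. The mean variance between the day 7 arrays was 0.251 over the 102 clones and 0.189 over those with complete values, above those of the other 6 days except day 21 in each case.

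The day 7 calls were then set beside the size of the early mean. Of the 44 clones with an early mean of at least 1, 34 were called higher at day 7 and all 44 were above 0 on both arrays. Of the 58 with a smaller early mean, 22 were called and 45 were above 0 on both arrays. Clones whose smaller mean was at least 0.5 gave 40 calls among 65, and those between 0.4 and 0.5 gave 16 among 37. The day 7 mean correlated with the early mean with r = 0.48 (rho 0.39) and with the late mean with r = 0.24 (rho 0.24, n = 102 clones). These are descriptions, since all arrays were made from the same pair of lines and the same clones.

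Clones that were high at only 1 end of the time course were read at day 7 in the same way. The 294 clones with an early mean of at least 0.4 and a lower late mean gave 39 higher calls and a median day 7 mean of 0.28. The 232 clones with a late mean of at least 0.4 and a lower early mean gave 25 higher calls and a median of 0.21. Among 111 clones with both means at or below -0.4, 3 were called higher and 21 lower, and the median was -0.47. The difference between these sets and the 102 clones was not tested, and the sets differ from each other by how they were chosen.

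**Figure D2:**
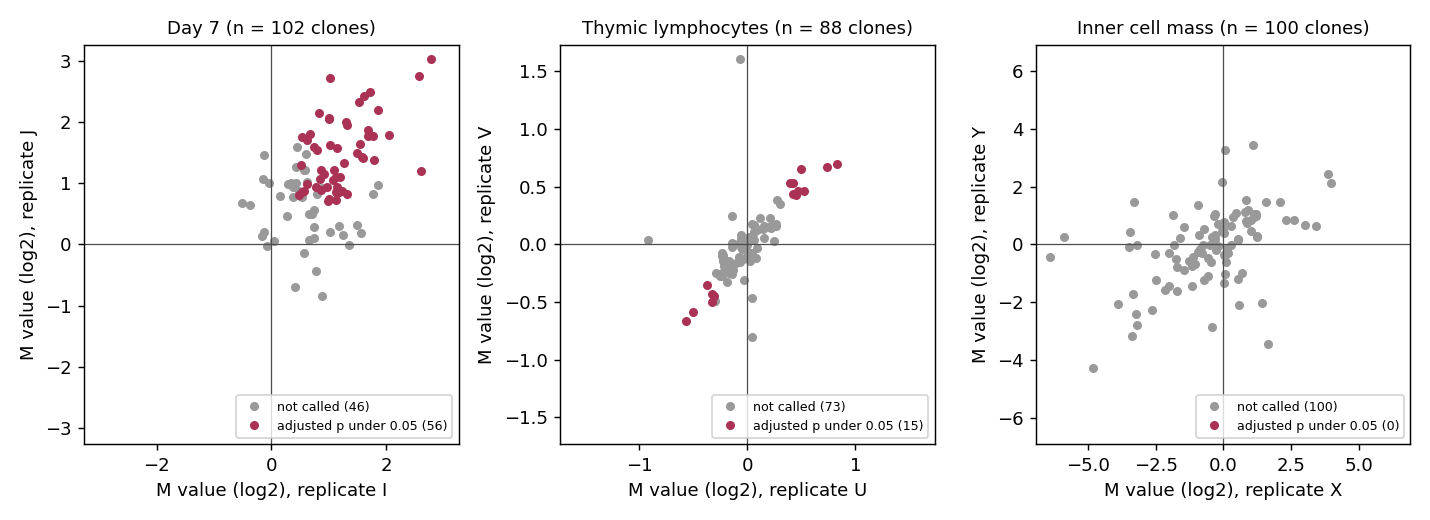
M values (log2) of the 102 clones on the 2 arrays of day 7 (left, replicate I on the x axis and J on the y axis), lymphocytes (middle, U and V) and ICM (right, X and Y), for clones measured on both arrays. Each point is 1 clone, coloured where the adjusted p of limma was under 0.05: 56 of 102 at day 7, 15 of 88 in lymphocytes and 0 of 100 in ICM. The day 7 points lie mostly above 0 on both axes, and those of lymphocytes and ICM spread around 0. The axes of the 3 panels differ.

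In thymic lymphocytes the median of the clones lay close to 0. It was -0.04 on replicate U (92 clones measured) and -0.03 on replicate V (88 clones), and 39 and 40 of them were above 0. These are 42.4% (U) and 45.5% (V), against 50.3% and 51.1% of the clones with complete ES cell values. The array medians averaged -0.04 ± 0.0085 (SD, n = 2 arrays). On both lymphocyte arrays 88 clones had a value, 4 had a value on 1 array and 10 on neither, so these 14 were not tested. Lymphocyte means of single clones ran from -0.61 to 0.77, a narrower range than at day 7. All clones were narrower there: the median absolute deviation over the clones with complete values was 0.192 (U) and 0.213 (V), against 0.523 (I) and 0.653 (J). The lymphocyte replicates correlated with r = 0.67 (rho 0.80, n = 88 clones).

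Of the 88 clones tested in lymphocytes, 9 were higher and 6 lower in female cells (limma on the 2 arrays, adjusted over 7781 clones). Over all clones tested the shares were 5.27% higher and 5.68% lower, and over the clones with complete ES cell values 4.07% and 4.1%. At an unadjusted p under 0.05 there were 17 higher and 20 lower, against 18% and 18.7% of all clones tested. Above 0 on both arrays were 31 of 88, against 40.9% of the clones with complete values, and below 0 on both were 42 of 88, against 39.3%. The number of calls depended on which clones were tested. When limma was run on the 3362 clones with complete ES cell values alone, 20 of the 88 were called higher and 30 lower, while 21.2% of the clones tested were called higher and 20.3% lower. The 9 clones called higher had lymphocyte means of 0.43 to 0.76, and 3 of them were also called higher at day 7. Among the 9 were H3020e05, H3026e03, H3092g09 and H3111d06 (lymphocyte means 0.46, 0.49, 0.70 and 0.76), which were below 0 on every day 12 array. Their day 7 means were 0.05, -0.05, 0.51 and 0.74, without a call. The 6 clones called lower had means of -0.61 to -0.36, and all 6 were above 0 on both day 7 arrays, 1 of them with a call. Among these 6, H3039h05 and H3047a07 had near-identical profiles over the arrays of the rule, as did H3106g02 and H3157f03. The 6 may therefore not be independent measurements, and the lower calls were not counted with 1 clone per profile.

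In the ICM the medians of the clones lay at or below 0. The median was -0.23 on replicate X and -0.02 on replicate Y (100 clones each), and 45 and 48 clones were above 0. Of the clones with complete ES cell values, 48.6% (X) and 47.7% (Y) were above 0. The ICM means of single clones ran from -4.53 to 3.14, with a median of -0.20. Both arrays were the widest of the series, with a median absolute deviation of 1.32 (X) and 0.993 (Y) over the clones with complete values, against 0.192 to 0.736 on the other 22 arrays. The study describes the ICM RNA as amplified, and whether amplification bears on this width was not tested.

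In the ICM, 0 of the 100 clones measured were called in either direction by limma, and over all 11515 clones tested 0% were called higher and 0% lower. At an unadjusted p under 0.05, 5 of the 100 were higher and 11 lower, against 5.95% and 7.53% of all clones tested. Above 0 on both ICM arrays were 30 of 100, against 27.2% of the clones with complete values, and below 0 on both were 37, against 31.3%. The median SE of an ICM mean was 0.495 over the 100 clones, against 0.286 at day 7 and 0.065 in lymphocytes. Over the 6 arrays of day 7, lymphocytes and ICM together, 8 of the 88 clones measured on all of them were above 0 throughout, against 4.77% of the clones with complete values. At day 7 alone 87.3% of the 102 were above 0 on both arrays, against 37.3% of those with complete values. In lymphocytes the shares were 35.2% and 40.9%, so the joint share does not show agreement between tissues.

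The difference between day 7 and lymphocytes was tested directly over the 4 arrays. The clones were chosen as high in the same pair of lines that day 7 compares, so a difference below 0 is favoured by the choice. All clones tested were not chosen in that way, so their shares are no like background. The median of lymphocyte minus day 7 was -1.05 over the 88 clones (-3.17 to 0.55), and 0.00 over all 6741 clones tested. The difference was below 0 with an adjusted p under 0.05 (limma with array weights) in 13 of the 88 clones and above 0 in 0, while 1.93% of all clones were called lower and 0.786% higher. Among clones with complete ES cell values these shares were 2.32% and 0.327%. At an unadjusted p under 0.05, 62 of the 88 were lower and 0 higher, against 11.5% and 9.21% of all clones tested. With all arrays scaled to a common spread, 30 of the 88 were called lower and 3 higher, against 4.73% and 4.82% of all clones tested. With no weights 9 were called lower and 0 higher, against 1.26% and 0.593%. The 13 clones had day 7 means of 0.90 to 2.91 and lymphocyte means of -0.61 to 0.43, and 12 of them were called higher at day 7.

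The same comparison for the ICM had a median difference of -1.07 over 100 clones (-5.72 to 2.03) and -0.10 over all 7950 clones tested. It was below 0 with an adjusted p under 0.05 in 4 clones and above 0 in 0, against 1.21% and 1.01% of all clones and 0.952% and 0.433% of those with complete values. At an unadjusted p under 0.05, 33 were lower and 1 higher, against 10.7% and 7.81% of all clones tested. The 4 clones had ICM means of -4.53 to -2.52 and day 7 means of 0.88 to 1.30, and all 4 were called higher at day 7. With no array weights 0 of all clones tested were called in either direction, and at a common spread 6 of the 100 were called lower and 0 higher, against 1.52% and 0.906% of all clones. As for lymphocytes, a difference below 0 is favoured by the choice of the clones. Lymphocytes and ICM differ from the ES cells in strain, tissue and, for the ICM, in amplification, and these cannot be told apart.

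**Figure D3:**
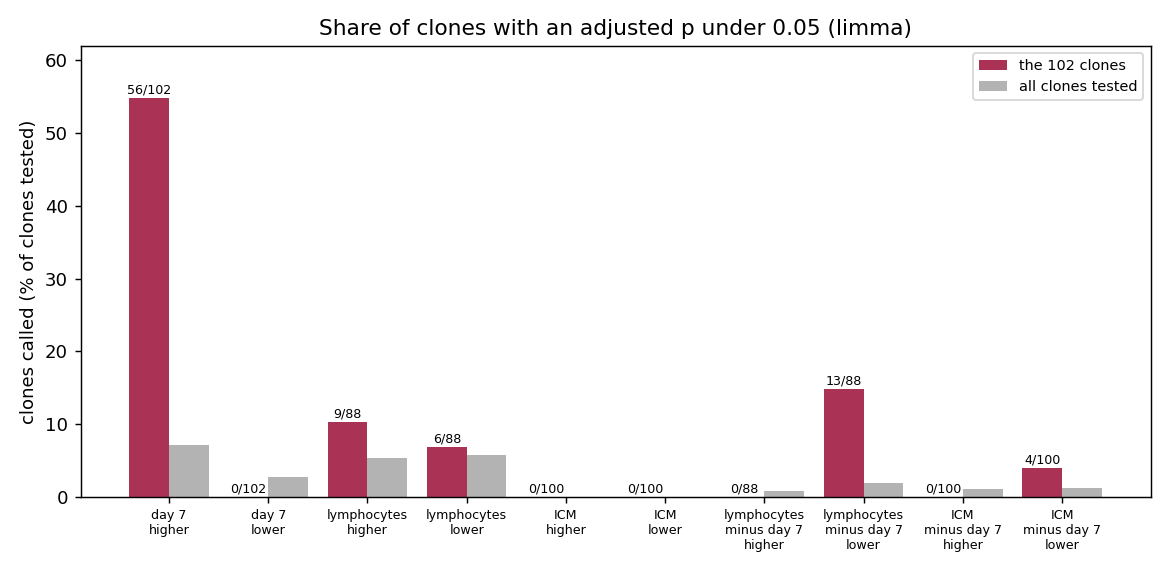
Share of clones with an adjusted p under 0.05 (y axis, % of clones tested) in each comparison and direction (x axis), for the 102 clones (dark bars, with calls over clones tested) and for all clones tested (light bars). The dark bar of day 7 higher is 56 of 102 against 7.06% of all clones. The dark bars of the lymphocyte calls are 9 and 6 of 88, and both ICM bars are 0.

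To read the ES cell days with arrays that had not chosen the clones, each day was left out of the rule in turn, and the clones so chosen were read on that day. Without day 0 the rule gave 117 clones, with day 0 medians of 0.55 to 0.96. Without day 2 it gave 100 clones with medians of 0.97 to 1.12, and without day 4 it gave 102 clones with medians of 0.84 to 1.05. At day 0 the median fell on all 4 arrays against the 102 clones, most on replicate D (0.74 to 0.55). Without day 12 the rule gave 88 clones with day 12 medians of 0.33 to 0.62, and without day 15 it gave 103 clones with medians of 0.46 to 0.66. Without day 21 it gave 135 clones, of which 82 were among the 102, and their medians on the 5 day 21 arrays were 0.23 to 0.30. Those were lower than the 0.51 to 0.69 of the 102 clones on the same arrays, though all were above the -0.13 to -0.09 of the clones with complete values.

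The share of these clones that lay above 0 on all arrays of the day left out was set beside that of the clones with complete values. The shares were 71.8% against 19.4% at day 0, 95.0% against 38.2% at day 2 and 83.3% against 38.0% at day 4. In the late days they were 64.8% against 26.3% at day 12, 74.8% against 35.2% at day 15 and 25.9% against 10% at day 21. The day left out shares the 2 cell lines with the days kept in. With 1 array left out at a time, the rule gave 95 to 111 clones, and their median on the array left out ran from 0.41 (R) to 1.16 (E), with 71.2% to 98% of them above 0.

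**Figure D4:**
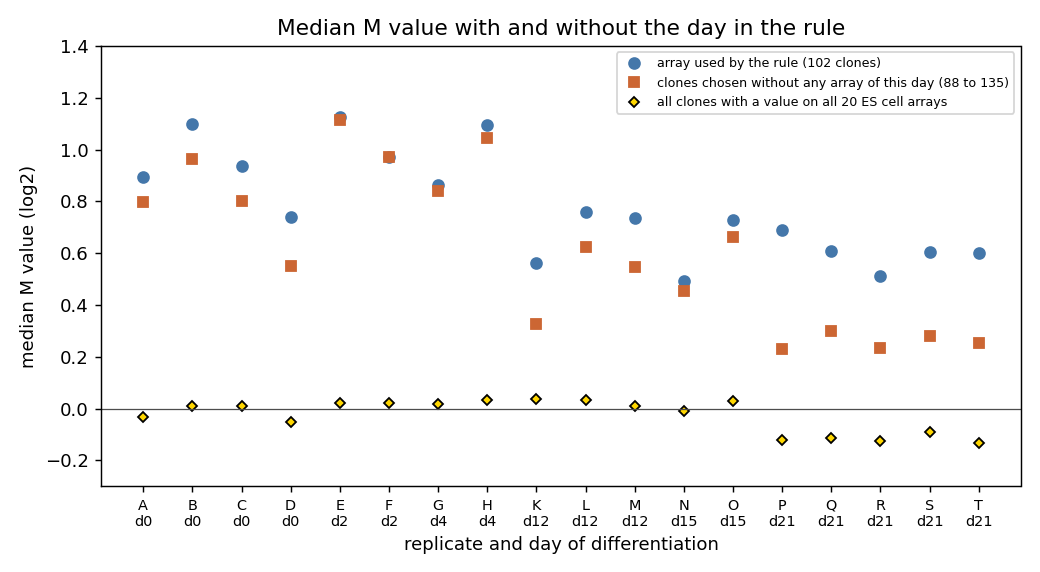
Median M value (log2, y axis) on each array of days 0 to 4 and 12 to 21 (x axis, replicate letter and day). Circles are the 102 clones, chosen with that array. Squares are the 88 to 135 clones chosen with that whole day left out, and diamonds are the 3527 clones with complete values. The squares lie near the circles at days 2 and 4, and at 0.23 to 0.30 against 0.51 to 0.69 at day 21.

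Of the 20 ES cell arrays, 16 had the female cDNA in Cy5 and 4 (A, N, O and P) in Cy3, and all arrays of day 7, lymphocytes and ICM had it in Cy5. Within day 0 the median on the Cy3 array was 0.89, inside the 0.74 to 1.10 of the 3 Cy5 arrays. Within day 21 it was 0.69 on the Cy3 array and 0.51 to 0.61 on the 4 Cy5 arrays. All arrays of these days were used for the choice, which favours high medians on either dye. Clones chosen on the Cy5 arrays alone numbered 129, and their medians on the 4 Cy3 arrays were 0.29 to 0.73. Clones chosen on the 4 Cy3 arrays alone numbered 260, of which 62 were among the 102, and their medians on the other 14 arrays ran from -0.24 to 0.62. That choice had 1 early array (A) and 3 late ones, against 7 and 7 for Cy5, so its early mean was a single value. At day 7 those 260 clones had medians of 0.49 (I) and 0.27 (J).

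The direction of the ratios is likely female over male, as the study defines its M value, since the labels give the dyes but not the numerator. Only days 0 and 21 hold arrays of both dye orientations. The sign of every other day, days 7 and 15 included, therefore has no check within the day, nor has that of lymphocytes or ICM. At day 7, in lymphocytes and in the ICM, the female sample and the Cy5 dye cannot be told apart. With the sign of the day 15 arrays turned, the rule gave 49 clones, of which 46 were among the 102, and 24 of the 49 were called higher at day 7. With the values taken instead as Cy5 over Cy3 and turned by the labels, it gave 50 clones, of which 21 were among the 102, and 10 were called higher at day 7. The share of all clones called with those values was not counted. Over all clones, same-day pairs of arrays had r = 0.08 to 0.80. Pairs of different days reached from r = -0.52 (K with Q, both with the female sample in Cy5) to 0.68, and 8 of 167 such pairs were below -0.3. Over the 102 clones alone, pairs of different days reached from r = -0.63 (L with Q) to 0.78, and 14 of 167 were below -0.3. Same-day pairs then reached from r = -0.11 (P with R, day 21 arrays of opposite dyes) to 0.86. With the sign of the day 12 arrays turned, the rule gave 33 clones, of which 28 were among the 102, and 11 were called higher at day 7. With the day 21 arrays turned it gave 32 clones, of which 5 were among the 102, and 6 were called higher at day 7. Whether any day runs the other way was not tested, and the values are given as deposited.

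Several of the 102 clones had near-identical profiles and may not be independent measurements. Over the 18 arrays of the rule, 32 clones fell into 12 groups linked by root mean square differences of at most 0.25, of which 10 were pairs, and 70 clones stood alone, which leaves 82 distinct profiles. The largest group held 9 clones from 5 source plates. Whether they carry the same cDNA could not be read from the files. All 9 were called higher at day 7, with values of 0.97 to 1.32 on replicate I and 0.82 to 1.09 on replicate J. In lymphocytes the 9 clones lay at -0.24 to -0.15 on replicate U and -0.33 to 0.01 on replicate V, and in the ICM they lay at 0.81 to 1.21 on replicate X and 0.46 to 1.20 on replicate Y. They thus make up 9 of the 30 clones above 0 on both ICM arrays and 8 of the 42 below 0 on both lymphocyte arrays. Without the 9 clones the medians of the other 93 were 0.83 (I), 1.01 (J), -0.01 (U), -0.00 (V), -0.35 (X) and -0.09 (Y). With 1 clone kept per profile, 41 of 82 were called higher at day 7.

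Source plates held few of the clones each. Of the 159 plates, 72 held at least 1 of the 102 clones, 56 of them exactly 1, and 8 held 3 or more. The most on 1 plate was 6, among 33 clones with complete values on plate 120. That is 18.2%, against 2.89% over all plates, and all 6 belonged to groups of near-identical profiles. Plate 155 held 5 of 24 (20.8%) and plate 134 held 3 of 15 (20%). Among the 102 clones, 5 pairs lay in adjacent wells of a row. The spread over plates was not tested. With the mean of each plate subtracted on every array, the rule gave 91 clones, of which 75 were among the 102, and 38 were called higher at day 7. The share of all clones called in that setting was not counted.

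Single clones were named by their day 7 or lymphocyte values, at most 2 in each direction, so their differences between these are descriptions of clones picked for such values. Clone H3086d04 was 1 of 5 that were called higher at day 7 and lay above 0 on both lymphocyte and both ICM arrays, and it had the highest day 7 mean of them. It read 1.86 (I) and 2.20 (J) at day 7, 0.42 (U) and 0.44 (V) in lymphocytes, and 1.59 (X) and 1.46 (Y) in the ICM. All 6 values were above 0, and both day 7 values exceeded all the other arrays of this clone. Its day 7 mean was 2.03 ± 0.307 (SE, limma, adjusted p = 0.000616), its lymphocyte mean was 0.43 ± 0.062 (adjusted p = 0.0369) and its ICM mean was 1.53 ± 0.463 (adjusted p = 0.336). The lymphocyte value was lower than that of day 7 by limma, with a difference of -1.60 ± 0.273 (adjusted p = 0.0327). On the arrays of the rule it ranged from -0.29 (D) to 1.59 (M).

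Clone H3042e05, next in that order, had an early mean of 1.67 and a late mean of 1.59. It read 1.02 (I) and 2.72 (J) at day 7, and its mean of 1.87 ± 0.554 (SE) had an adjusted p of 0.0407 in limma, which was lost without replicate J, when the day 7 value was 1.02, and with all arrays scaled to a common spread, when it was 1.63. In lymphocytes it read 0.42 (U) and 0.53 (V), with a mean of 0.48 ± 0.068 (limma, adjusted p = 0.0358), a call lost with the plate mean subtracted (0.46). In the ICM it read 0.02 (X) and 0.38 (Y). The lymphocyte minus day 7 difference was -1.39 ± 0.421 and missed the threshold (limma, adjusted p = 0.131). Its day 21 values were spread from -0.08 (R) to 2.95 (Q).

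Clone H3010f04 had the lowest lymphocyte mean of the 6 clones called lower there. It read 2.04 (I) and 1.78 (J) at day 7, against -0.56 (U) and -0.66 (V) in lymphocytes and 0.03 (X) and 0.79 (Y) in the ICM. The day 7 and lymphocyte values thus lay on opposite sides of 0. Its day 7 mean was 1.91 ± 0.275 (SE, limma, adjusted p = 0.000396), its lymphocyte mean was -0.61 ± 0.066 (adjusted p = 0.0299), and the difference was -2.53 ± 0.281 (adjusted p = 0.0144). On days 0 to 4 it read 1.24 to 2.38, on days 12 and 15 it read 0.62 to 0.90, and on day 21 it read -0.57 (P) to 0.88 (S).

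Clone H3106g02 was the next lowest in lymphocytes. It read 0.88 (I) and 0.92 (J) at day 7, where its mean of 0.90 ± 0.323 (SE, limma) missed the threshold with an adjusted p of 0.0879. In lymphocytes it read -0.50 (U) and -0.58 (V), a mean of -0.54 ± 0.065 (adjusted p = 0.0314), and in the ICM it read -0.57 (X) and -1.09 (Y). It was above 0 on all 18 arrays of the rule and on both day 7 arrays, and below 0 on the 4 arrays of lymphocytes and ICM. The lymphocyte minus day 7 difference was -1.44 ± 0.272 (limma, adjusted p = 0.0421). Clone H3157f03 had a near-identical profile over the arrays of the rule and read -0.37 (U) and -0.35 (V) in lymphocytes.

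**Figure D5:**
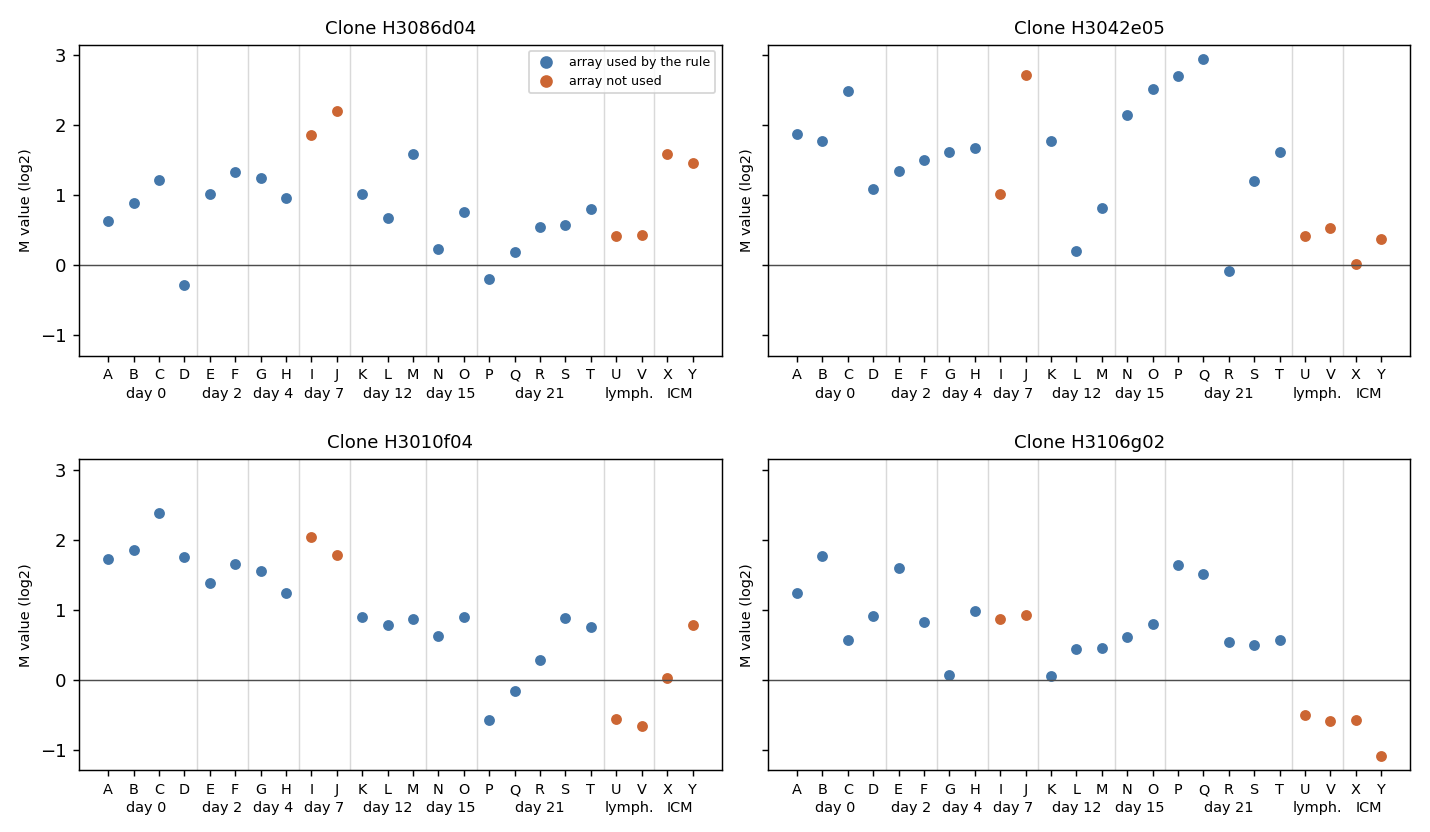
M values (log2, y axis) of clones H3086d04, H3042e05, H3010f04 and H3106g02 on each array (x axis, replicate letters under day or tissue), 1 point per array. H3086d04 is above 0 on all 6 arrays not used in the choice. H3010f04 reads 2.04 and 1.78 at day 7 and -0.56 and -0.66 in lymphocytes.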

How the data were processed

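Female and male cDNA, labelled with Cy3 and Cy5, were hybridised to the same slide for 24 arrays. The deposited values are log2 ratios, 1 per clone and array, which the authors made with GenePix 6.0 and normalised with Gepas (treatment of background and missing values: not given in the sources used here). Labels mention removal of abnormal spots by hand for 15 arrays. Array medians as deposited were -0.0815 to 0.0398, and arrays had values for 4985 to 13736 of 15247 clones. No spot intensities were used, and the number of arrays limits the precision.

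Each array was centred on its median. The clones were chosen by their early and late means; members, comparison sets and lists were chosen with earlier results of these data known. Day 7 was tested with limma 3.58.1 in R 4.3.3, with a mean per day over the 20 ES cell arrays, for clones with a value on every day. Lymphocytes and ICM were each tested on their 2 arrays, and differences from day 7 over 4 arrays with weights per group. Benjamini-Hochberg adjustment ran over all clones tested, and an adjusted p under 0.05 was called. Procedures were tested on simulated data. No clone name matched the mouse RefSeq table (0 of 15247), so planned gene lists and marker checks were not run.

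Named as high were the 2 clones with the highest day 7 mean among those called there and above 0 on all lymphocyte and ICM arrays, and as low the 2 with the lowest lymphocyte mean among those called there. Alternatives were other centring, scaling, directions, thresholds, averages, array subsets, clone filters, robust moderation (statmod 1.5.0), array weights, a dye term and arrays left out. Added after seeing the data were left-out days, near-identical profiles, turned signs at days 12 and 21, and scaling for the differences.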

Additional observations from a re-analysis of the deposited data

Results flagged for a closer look

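The lymphocyte ratio was below that of day 7 in 13 of 88 clones by limma with array weights and Benjamini-Hochberg adjustment, while 1.93% of all clones tested were. In the same test the ICM ratio was below that of day 7 in 4 of 100 clones, against 1.21%, and with no array weights in 0. In both comparisons the clones had been chosen as high in the ES cell lines of day 7, which favours a difference below 0.

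Among the named clones, the lymphocyte minus day 7 difference was -1.60 for H3086d04 (lower on both lymphocyte arrays than on both day 7 arrays), -2.53 for H3010f04 and -1.44 for H3106g02, all with an adjusted p under 0.05 in limma. For the fourth named clone, H3042e05, it was -1.39 with an adjusted p of 0.131. These clones were named for high day 7 or low lymphocyte values, so their differences are descriptions. Strain, tissue and cell state change together in this comparison and cannot be told apart. Dixon's test found no outlying array in 12 checks of the medians, the counts above 0 and the named clones at days 0 and 21.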

How the results depend on the processing

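In no alternative was a clone chosen by the rule called lower at day 7. The rule chose 177 clones at a threshold of 0.3 and 65 at 0.5, and 260 on the Cy3 arrays alone, where the early mean was 1 array. It chose 50 with Cy5 over Cy3 values, and 49, 33 and 32 with the day 15, day 12 or day 21 arrays turned; the day 21 set shared 5 clones with the 102. Leaving out 1 array gave 95 to 111 clones. The clones called higher at day 7 then numbered 10 (Cy5 over Cy3), 24 (day 15 turned), 11 (day 12) and 6 (day 21), and 13 to 61 with 1 array left out. For Cy5 over Cy3 the share of all clones called was not counted. Turning a whole other day leaves the day 7 fit as it was, with 7.06% of all clones called higher. The day 7 median was 0.84 with complete clones as centre, 0.81 with arrays at a common spread, 0.64 for Cy5 over Cy3, 0.83 with day 12 turned, 0.50 with day 21 turned, 0.80 at the threshold 0.3, 0.38 on Cy3 arrays, 0.84 on Cy5 arrays and 0.80 on arrays without removal by hand. Leaving out 1 array gave 0.87 to 0.97. The cause of these shifts was not tested.

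In lymphocytes the higher calls were 18 of 177 clones chosen at the threshold 0.3, 5 of 33 with day 12 turned and 1 of 32 with day 21 turned. In these settings 5.27% of all clones tested were called higher. The totals are clones chosen, whether or not measured in lymphocytes. When complete clones alone were tested 20 of the 88 were called higher, against 21.2% of the clones tested. When both arrays above 0 was enough there were 31 of 88, against 40.9% of complete clones. With 1 array left out there were 7 to 11. The lower calls were 1 of 50 (Cy5 over Cy3), 2 of 33 (day 12 turned) and 0 of 32 (day 21 turned), against 5.68% of all clones tested. They were 30 of 88 with complete clones alone, against 20.3%. Below 0 on both arrays were 42 of 88, against 39.3%. With 1 array left out there were 6 to 7 lower calls. The lymphocyte median moved beyond its small SD in several alternatives. It was -0.143 with day 12 turned and between -0.079 and 0.031 in the others listed next. It was -0.019 at a common spread, 0.031 for Cy5 over Cy3, and -0.029 (day 15) and 0.0096 (day 21) with signs turned. At the threshold 0.3 it was -0.018, at 0.5 -0.079, and with days weighted equally -0.018. By arrays it was -0.013 (Cy3), -0.022 (Cy5) and -0.0028 (without removal by hand). With plate means subtracted it was -0.048, and with 1 clone per profile 0.020. Leaving out 1 array gave -0.056 to -0.027.

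In the ICM, calls were 0 in every limma alternative. On both arrays 30 of 100 clones were above 0, against 27.2% of complete clones, and 37 were below 0, against 31.3%. The median was 0.11 for Cy5 over Cy3, -0.43 on Cy3 arrays, -0.56 and 0.14 with day 12 and day 21 turned, and -0.23 to -0.02 with 1 array left out. The lymphocyte difference was called in 33 clones at a common spread (30 lower, 3 higher; 4.73% and 4.82% of all clones) and in 9 with no weights, and the ICM difference in 6 and 0. No paired analysis was possible because each replicate letter names 1 array. Values on the rule's own arrays, clones without lymphocyte values and the 2 arrays per tissue limit what can be read.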
